A study of Mus musculus with 2 samples.

Results

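Spic and 4 regulators through which cells sense heme were followed in GM-CSF-supplemented mouse BM (bone marrow) cultures. They are Spic, Bach1, Nfe2l2, Keap1 and Mafg, taken by name from the 26124 genes of the matrices, and all 5 were listed there. Lineage-depleted BM progenitors of C57BL/6 mice aged 8 to 10 weeks were grown with 20 ng/ml GM-CSF, a cytokine under which such progenitors give rise to myeloid cells of several kinds. On day 3, cultures received 300 µM heme-albumin (heme) or albumin alone (control). Each condition was 1 droplet library of transcript 3′ ends, pooled from cultures of days 0, 3, 4, 5 and 7 that carried antibody-bound DNA hashtags. Days 0 and 3 precede the exposure. With 1 library per condition there was no replicate, so every error below is an exact 95% interval for counting error only and no test across samples was possible. The number of mice is not given in the sources used here. In summed cells, a change in the share of a cell type and a change in the RNA per cell cannot be told apart.

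Spic encodes an ETS family transcription factor (Spi-C) best known from the macrophages of the splenic red pulp and BM that recycle iron from red blood cells. BACH1 (gene Bach1) is a repressor that binds heme, and heme binding removes it from DNA and leads to its degradation. NRF2 (gene Nfe2l2) activates antioxidant and heme-handling genes and is itself controlled mainly as a protein, because KEAP1 (gene Keap1) delivers it for degradation in unstressed cells. MAFG is a small MAF protein that pairs with either factor and carries it to the same DNA sites. Transcript counts do not measure the stability or location of any of these proteins.

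The first 300 bases around the annotated start of 3 genes are shown, because Spic, Bach1 and Mafg were those whose summed level was at least 2 times higher in the heme library on day 7. They run 5′ to 3′ from 250 bases before to 50 after the start, from RefSeq on GRCm38.p6, the build named in the submitters' processing notes. All lie on the strand of their gene. Capitals mark matches, on either strand, to any of 3 searched letter strings. These were TGANTCA and TGACNNNGC, cores of the elements that NRF2, BACH1 and small MAF proteins bind, and GAGGAAG, a purine-rich string of the kind ETS factors bind.

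Spic, chr10:88682974-88683273, minus strand: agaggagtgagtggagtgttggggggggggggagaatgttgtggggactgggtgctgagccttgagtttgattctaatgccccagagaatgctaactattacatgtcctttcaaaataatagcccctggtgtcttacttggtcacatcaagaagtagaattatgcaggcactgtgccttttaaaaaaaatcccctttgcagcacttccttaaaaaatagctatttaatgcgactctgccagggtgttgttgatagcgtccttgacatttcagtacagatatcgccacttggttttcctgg
Bach1, chr16:87698704-87699003, plus strand: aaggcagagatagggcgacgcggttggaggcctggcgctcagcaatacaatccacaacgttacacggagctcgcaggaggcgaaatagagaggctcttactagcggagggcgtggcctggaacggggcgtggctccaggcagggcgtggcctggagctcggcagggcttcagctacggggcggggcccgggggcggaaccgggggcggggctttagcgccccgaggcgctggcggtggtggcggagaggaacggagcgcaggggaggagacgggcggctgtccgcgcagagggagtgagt
Mafg, chr11:120633498-120633797, minus strand: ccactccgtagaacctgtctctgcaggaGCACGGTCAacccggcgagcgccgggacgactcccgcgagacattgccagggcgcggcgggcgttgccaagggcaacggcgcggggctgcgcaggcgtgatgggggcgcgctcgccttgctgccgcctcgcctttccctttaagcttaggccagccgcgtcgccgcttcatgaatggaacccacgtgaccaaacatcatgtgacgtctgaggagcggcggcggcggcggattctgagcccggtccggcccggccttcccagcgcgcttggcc

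The windows of Spic, Bach1 and Keap1 held none of the strings. That of Mafg held 1 match to TGACNNNGC, read as GCACGGTCA on the printed strand at bases -222 to -214 from the start. That of Nfe2l2 (chr2:75704614-75704913, minus strand) held 1 match to the same string, TGACTCCGC, at bases -240 to -232. Of 32851 windows of 300 bases in the table, TGANTCA was in 7.81%, TGACNNNGC in 12.4% and GAGGAAG in 13.6%, and the strings can overlap. The absence of a string says only that these letters are not in this window. In the GENCODE M21 annotation the span of Spic, on the minus strand, reaches base 88685015, whereas its window ends at 88683273. The Spic window thus surrounds the RefSeq start but lies inside that span, and the sequence at the outer start was not searched. The Spic window was 45% G or C, against 53.3% for Keap1, 68.7% for Nfe2l2 and 69.7% for both Bach1 and Mafg.

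In the GENCODE M21 annotation of GRCm38, Spic (ENSMUSG00000004359) spans chr10:88674772-88685015 and Bach1 (ENSMUSG00000025612) spans chr16:87698945-87733346, and neither overlaps another gene. Nfe2l2 (ENSMUSG00000015839) spans chr2:75675513-75704641 and contains a small nuclear RNA gene. Keap1 (ENSMUSG00000003308) spans chr9:21229730-21239361 and shares 3317 bases with an antisense gene. Neither neighbour is in the matrices. Mafg (ENSMUSG00000051510) spans chr11:120625117-120633600, and the last 124 bases at its 3′ end also belong to Sirt7 on the same strand. Reads in that stretch cannot be given to 1 gene, so Mafg counts carry this uncertainty.

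After filtering, the control library held 598 to 2715 cells per day and the heme library 1366 to 2481, with 6189203 to 34647365 UMIs (unique molecular identifiers, 1 per captured transcript) per culture. Levels are given as CPM, the UMIs of a gene for every 1000000 UMIs of its culture. The libraries listed 112 barcodes in common. The cultures were mixed. Neutrophil markers led on days 3 to 5 in both libraries, with S100a8 between 39202 and 84535 CPM, and macrophage markers (Csf1r, Adgre1, Mrc1, Marco, Mertk, C1qa, Cd68 and Vcam1) had a summed level of 533 CPM in control and 1439 CPM in heme on day 7. The largest parts of that difference were Marco (3.64 CPM in control, 522 in heme) and Mrc1 (60.6 and 275 CPM). Cd68 was at 166 and 200 CPM, Vcam1 at 1.15 and 1.11 CPM, and C1qa was lower in heme (61.8 and 1.22 CPM). The B cell marker Ms4a1 was at 0 UMIs in both cultures of day 7, and Cd79a and Cd79b together stood at 1.18 CPM in control and 2.08 CPM in heme. The filter removed unlike shares of barcodes with 1 hashtag. On day 0, 59.9% of those in control and 7.78% in heme had a ribosomal share of 30% or more. Over 5000 genes were found in 8.34% (control) and 33.9% (heme) on day 3, and in 4.82% and 26.1% on day 7. The kept cells, those of day 0 above all, are thus unlike fractions of the 2 libraries. The libraries also differed before any heme was given. Among all genes whose UMIs in the 2 cultures added up to at least 20, the median log2 ratio of heme to control was 0.44, 0.31, 0.28, 0.25 and 0.28 on days 0, 3, 4, 5 and 7, so each ratio below is read against that shift. The cause of the shift was not tested.

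Spic was scarce in the control library on every day and rose in the heme library after exposure. In the control library its level on days 0, 3, 4, 5 and 7 was 0.323, 1.02, 0.461, 0.423 and 0.144 CPM, from 2, 30, 12, 11 and 5 UMIs. In the heme library it was 2.12, 2.40, 18, 23.4 and 104 CPM, from 28, 79, 494, 453 and 2802 UMIs. The 3 exposed cultures stood apart from the 7 others, and the interval of the lowest of them (16.4 to 19.7 CPM on day 4) lay above those of both unexposed heme cultures (1.41 to 3.07 and 1.90 to 3.00 CPM). The ratio of heme to control was 39.1 (22.2 to 76.1) on day 4, 55.2 (30.5 to 111) on day 5 and 720.5 (308 to 2221) on day 7. The intervals of days 4 and 5 overlapped for the ratio but not for the level (21.3 to 25.6 CPM on day 5), and day 7 lay above both. Within the heme library the level was 7.48 times that of day 3 on day 4 (5.89 to 9.62), 9.72 times on day 5 and 43.2 times on day 7 (34.6 to 54.8). Within the control library it moved the other way, to 0.141 times the day 3 level on day 7 (0.0429 to 0.368).

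**Figure D1:**
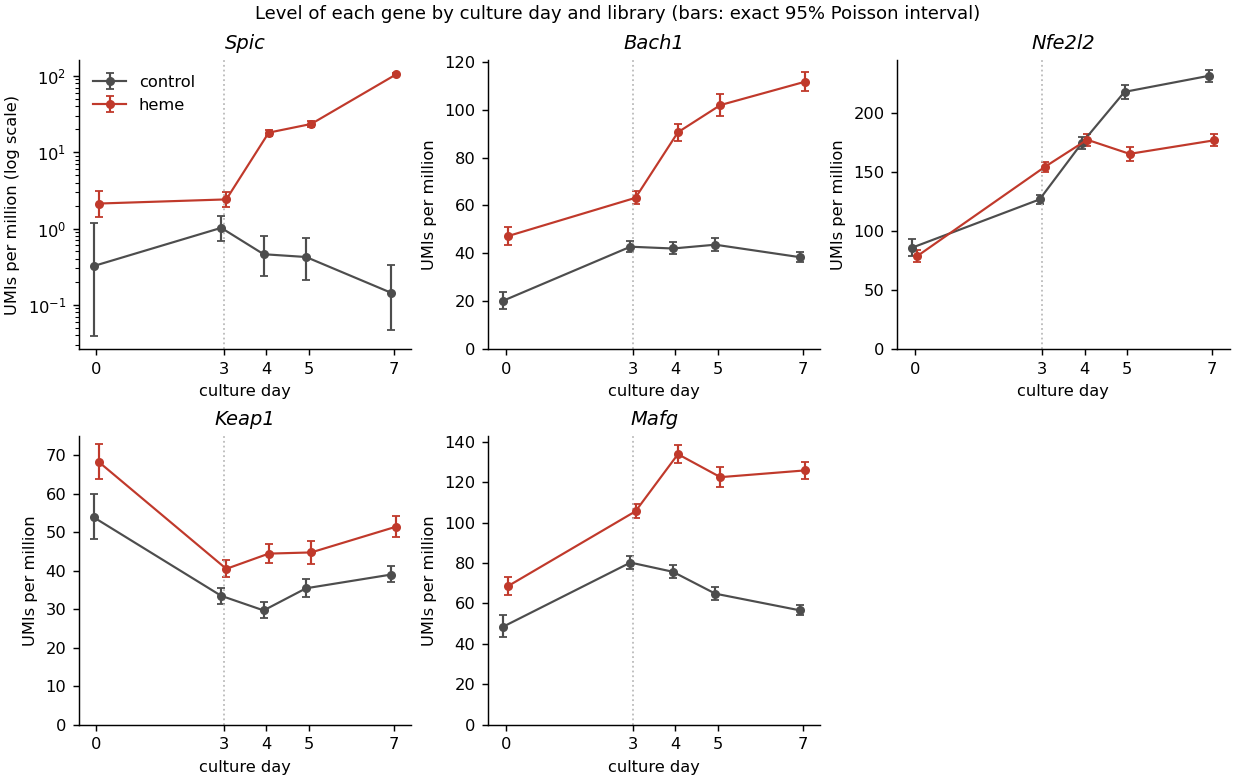
Levels of the 5 genes in CPM (vertical axes, logarithmic for Spic only) by culture day (horizontal axes) in the control (grey) and heme (red) library, with exact 95% Poisson intervals and a dotted line at the day of addition. Spic reached 104 CPM in the heme culture of day 7 against 0.144 in control, and Nfe2l2 was the gene whose control level on days 5 and 7 lay above the heme level.

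The share of cells with a Spic UMI followed the level. In the heme library it was 1.98%, 3.27%, 9.39%, 12.5% and 48.5% of cells on the successive days, the last being 975 of 2012 cells (46.3% to 50.7%). In the control library it lay between 0.184% and 1.11%. With each cell thinned at random to 5000 UMIs, and shallower cells left out, the heme shares were 0.912%, 0.869%, 5.69%, 6.83% and 31.5%, and control day 7 had 0.170% of 2360 cells. Of the carrying cells, 53 of 233 held 3 or more Spic UMIs on day 4, 50 of 238 on day 5 and 431 of 975 on day 7. The most in 1 cell was 17, 9 and 13 UMIs.

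The unexposed cultures of the heme library also carried some Spic, at 6.57 times the control level on day 0 (1.66 to 56.9) and 2.36 times on day 3 (1.53 to 3.72). Their cells had been pooled with the exposed ones. For each Spic UMI, the heme culture of day 0 held 3.82 UMIs of Marco, 2.79 of Mrc1 and 62.8 of Hmox1, which encodes heme oxygenase 1, and the culture of day 7 held 5.02, 2.64 and 50.02. The ratios were not shared by all days. The unexposed heme culture of day 3 had 3.44, 42.9 and 66.9. The control culture of that day, with 30 Spic UMIs, had 0.0667, 76.2 and 36.6. In the exposed cultures of days 4 and 5, Marco stood at 0.605 and 0.792 UMIs per Spic UMI. The control culture of day 0 had 1 Marco UMI and 12 Hmox1 UMIs in all. Hmox1 stood at 133 CPM on day 0 and 161 CPM on day 3 in the heme library, against 1.94 and 37.3 in control. Of heme cells of day 3 with 5000 or more CPM of the neutrophil gene S100a8 (S100a8-high), 2.24% carried Spic at a median depth of 14105.5 UMIs, against 3.27% of the whole culture at 15030.5 UMIs. Among S100a8-low heme cells of that day, the Spic level was 4.61 CPM with and 1.63 CPM without Mrc1 UMIs. The part of free RNA in the unexposed cultures was not tested. Divided by the ratio of day 3, the day 7 ratio of Spic was 8.26 on the log2 scale in place of 9.49.

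Spic in exposed cultures was found mainly in cells with few S100a8 UMIs. S100a8-high cells made up 83.9%, 74.8% and 26.0% of the heme cells of days 4, 5 and 7. They held 21.7%, 16.3% and 1.86% of its Spic UMIs. The Spic level in them was 5.11, 6.66 and 11.4 CPM on days 4, 5 and 7, against 59.3, 45.8 and 123 CPM in S100a8-low cells. Of S100a8-low cells, 42.5%, 39.6% and 63.1% carried Spic on these days, at median depths of 17170, 17850.5 and 15625 UMIs. Of S100a8-high cells, 3.03%, 3.36% and 6.88% did, at median depths of 8438, 6321 and 7378 UMIs. With a threshold of 2000 CPM the share on day 7 was 12.2% in place of 6.88%. With cells thinned to 5000 UMIs these shares were 22.0%, 21.4% and 39.2% in S100a8-low and 1.97%, 2.07% and 5.26% in S100a8-high cells. Between 1.93% and 8.25% of the heme cells of a day lay within 2 times of this threshold on either side.

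Among S100a8-low cells, Spic was counted in cells with and without the macrophage receptors Marco (a scavenger receptor) and Mrc1 (the mannose receptor), and the mixture changed with time. On day 7, the 815 cells positive for both (1 or more UMIs of each) held 2116 of the 2802 Spic UMIs (75.5%), at 155 CPM (149 to 162), and 81.0% of them carried Spic. The 313 cells with Mrc1 and no Marco UMI held 438 Spic UMIs at 90.5 CPM (82.3 to 99.4). The 76 cells with Marco and no Mrc1 UMI held 68 at 79.6 CPM (61.8 to 101). The 285 cells with neither held 128 at 41.8 CPM (34.9 to 49.7). The middle pair had overlapping intervals, and the double-positive cells lay above both and the double-negative cells below both. Depth differed in the same order at its ends, with a median of 17181 UMIs in double-positive and 10005 in double-negative cells, and thinned to 5000 UMIs the shares with Spic were 48.8%, 31.8%, 31.9% and 18.2%.

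On days 4 and 5 most Spic UMIs lay in cells without a Marco UMI. Marco-positive cells of any kind held 19.0%, 31.6% and 78.6% of the Spic UMIs on days 4, 5 and 7 (76.98% to 80.1% on day 7). Mrc1-positive cells held 72.9%, 55.0% and 92.0%. The number of such cells changed as well. Marco-positive cells were 8.50%, 9.01% and 47.2% of all heme cells on these days, and Mrc1-positive cells 15.2%, 15.1% and 58.2%. Both kinds thus held a larger share of the Spic UMIs than of the cells on each of these days. On day 4 the S100a8-low cells with Mrc1 and no Marco UMI had 78.1 CPM of Spic (68.5 to 88.6), overlapping the 91.7 CPM (70.8 to 117) of the 39 double-positive cells. Marco itself stood at 8.28, 10.9, 18.5 and 522 CPM on days 3, 4, 5 and 7, and Spic at 2.40, 18, 23.4 and 104 CPM. In S100a8-low cells the Marco UMIs per Spic UMI were 0.341, 0.665 and 5.06 on days 4, 5 and 7, while Mrc1 UMIs per Spic UMI were 2.80, 2.53 and 2.66. A cell without a Marco UMI may still hold the transcript below detection, so Marco-negative means no UMI captured.

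**Figure D2:**
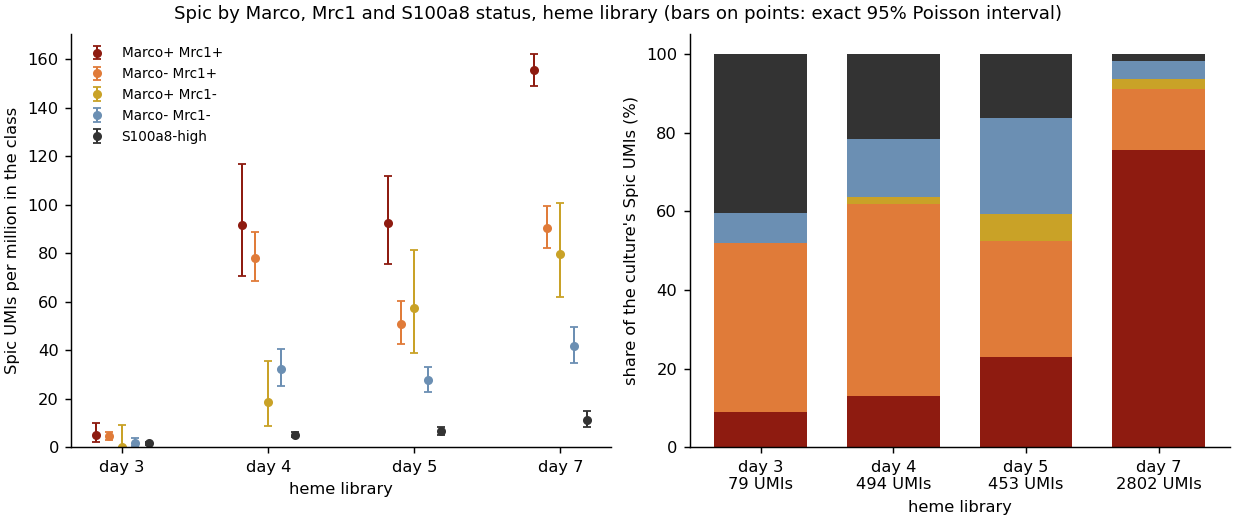
Left, Spic level in CPM (vertical axis) in S100a8-low cells split by Marco and Mrc1 UMIs and in S100a8-high cells, heme library, days 3 to 7, with exact 95% Poisson intervals; right, share of the culture's Spic UMIs (percent) held by each class. Cells positive for both receptors held 75.5% of the UMIs on day 7 and 13.2% on day 4, when the Mrc1-positive Marco-negative class held 48.6%. The share of cells in each class also differed between days.

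S100a8-high cells with receptor UMIs were few. On day 7, 18 of them had both receptors and held 15 Spic UMIs at 62.4 CPM (34.9 to 103), and 441 had neither and held 25 at 6.86 CPM (4.44 to 10.1). In the S100a8-high cells as a class there were 2.85 Marco UMIs and 128 Hmox1 UMIs per Spic UMI on day 7, against 5.06 and 48.5 in S100a8-low cells. The part of free RNA in the Spic UMIs of S100a8-high cells was not tested. In the control library on day 3, 26 of 30 (86.7%) were in Mrc1-positive cells and 7 (23.3%) in S100a8-high cells. On day 7 all 5 were in S100a8-low cells, 1 of them in an Mrc1-positive cell, and none of the 28 Marco-positive control cells carried Spic. Among S100a8-low Mrc1-positive cells alone, the ratio of heme to control on day 7 was 1515, from 2554 UMIs against 1 UMI (272 to 59875).

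The heme cells with Spic differed from other S100a8-low heme cells of the same day in macrophage and dendritic cell genes. On day 7, the 939 carrying cells had 770 CPM of Marco against 292 in the 550 others, 385 against 197 CPM of Mrc1 and 88.8 against 45.7 CPM of Treml4, a receptor of splenic macrophages. Mertk, an engulfment receptor, was at 33.5 against 16.3 CPM, and Maf, a macrophage transcription factor, was at 49.3 against 24.2 CPM. Not all macrophage genes were higher in carrying cells. Cd68 was at 225 against 226 CPM, and Trf was lower, at 29.7 against 67.6 CPM (0.440 times, 0.386 to 0.501). Ccr7, the homing receptor of migratory dendritic cells, was lower in carrying cells, at 12.2 against 93.6 CPM (0.131 times, 0.111 to 0.154). The relation for Ccr7 was the opposite on day 4, with 199 against 109 CPM (1.83 times, 1.61 to 2.08), and the day 5 levels were 233 and 216 CPM. The basophil protease gene Mcpt8 was lower in carrying cells on day 4 (4.54 against 299 CPM), day 5 (14.3 against 127 CPM) and day 7 (4.86 against 48.3 CPM). Carrying cells were also deeper, with median UMIs of 16834 against 12370 on day 7, and a deeper cell is more often counted as carrying, so these are descriptions.

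Bach1 climbed in the heme library throughout and stayed near its day 3 level in control. On days 0, 3, 4, 5 and 7 its level was 20.2, 42.8, 42.0, 43.6 and 38.4 CPM in control and 47.2, 63.2, 90.6, 102 and 112 CPM in heme. Every heme culture lay above every control culture in its interval except day 0, whose interval (43.6 to 51.1) overlapped those of control days 3 to 5. Exposed heme cultures ranked in the order of days 7, 5 and 4, and the intervals of days 5 (97.5 to 107) and 7 (108 to 116) did not overlap. The ratio of heme to control was 2.16 (2.01 to 2.32) on day 4, 2.34 (2.17 to 2.52) on day 5 and 2.91 (2.73 to 3.11) on day 7. It was also above 1 before exposure, at 2.34 (1.93 to 2.86) on day 0 and 1.48 (1.38 to 1.59) on day 3. Relative to day 3 of the same library, Bach1 on day 7 was 1.77 times as high in heme (1.67 to 1.87) and 0.897 times in control (0.830 to 0.970). Divided by the day 3 ratio, the day 7 ratio of Bach1 was 0.98 on the log2 scale in place of 1.54, just under 2 times.

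Mafg separated the libraries in both directions of time. Over days 3, 4, 5 and 7 it stood at 80.2, 75.6, 64.8 and 56.5 CPM in control and at 106, 134, 122 and 126 CPM in heme. On day 0 the levels were 48.5 and 68.6 CPM. The heme cultures of days 5 and 7 had overlapping intervals (118 to 127 and 122 to 130), and all exposed heme cultures lay above all control cultures. The ratio was 1.77 (1.67 to 1.87) on day 4, 1.89 (1.77 to 2.01) on day 5 and 2.22 (2.10 to 2.35) on day 7, after 1.32 (1.25 to 1.39) on day 3. Relative to day 3, Mafg on day 7 was 1.19 times as high in heme (1.14 to 1.25) and 0.705 times in control (0.664 to 0.749).

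Nfe2l2, the transcript of NRF2, was lower in the heme library late in culture. Its control levels climbed with culture time, from 86.1 through 127, 175 and 218 to 232 CPM. Its heme levels climbed from 79.0 to 155 CPM before exposure and were then 178, 166 and 177 CPM. The control cultures of days 7 (226.8 to 237) and 5 (213 to 224) were the highest of the 10 and did not overlap each other. The heme cultures of days 4, 5 and 7 overlapped control day 4. The ratio was 1.22 (1.17 to 1.27) on day 3, 1.01 (0.974 to 1.06) on day 4, 0.759 (0.727 to 0.793) on day 5 and 0.764 (0.737 to 0.792) on day 7. Relative to the median of all genes the log2 ratio was -0.03, -0.26, -0.65 and -0.67 over the same days.

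Keap1 had ratios of heme to control above 1 on every day, but relative to the median of all genes its log2 ratio was below 0 on day 0 (-0.09) and day 3. On day 0 it was also below 0 with TMM factors (-0.04) and DESeq2 size factors (-0.03). It was highest on day 0, at 53.8 CPM in control and 68.2 in heme, and then 33.5, 29.7, 35.4 and 38.96 CPM in control and 40.5, 44.4, 44.7 and 51.4 CPM in heme on days 3, 4, 5 and 7. The exposed heme cultures of days 4 and 5 overlapped each other and heme day 3 (38.3 to 42.7). The ratio was 1.21 (1.11 to 1.31) on day 3, 1.497 (1.37 to 1.64) on day 4, 1.26 (1.15 to 1.39) on day 5 and 1.32 (1.22 to 1.42) on day 7. Relative to the median of all genes the log2 ratio was -0.04, 0.30, 0.08 and 0.12 over the same days.

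**Figure D3:**
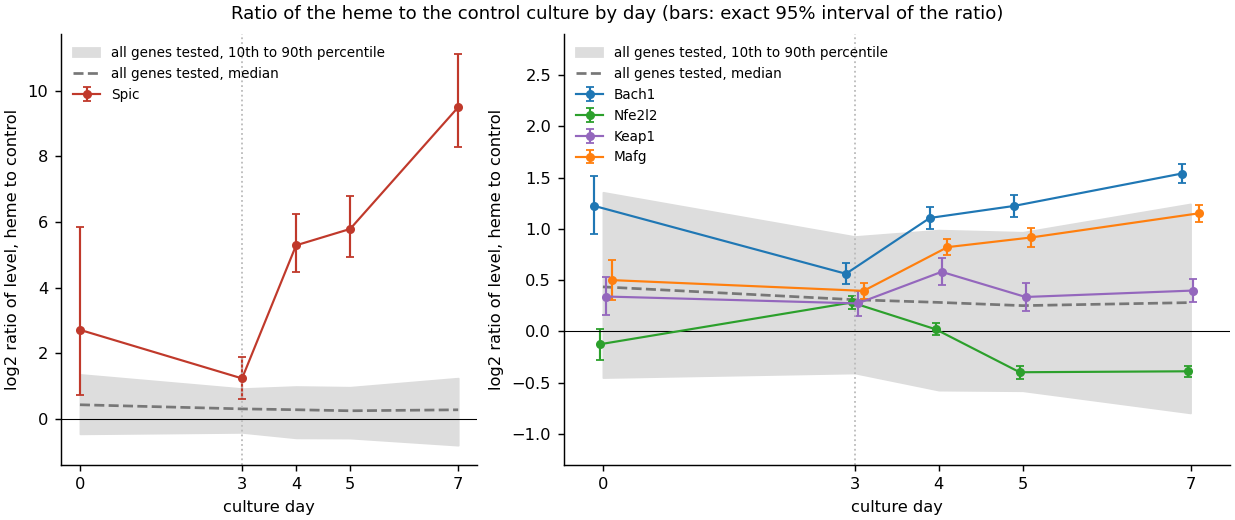
Log2 ratio of the heme to the control culture (vertical axes) by culture day for Spic (left) and the 4 regulators (right), with exact 95% intervals; the dashed line is the median and the grey band the 10th to 90th percentile of all genes tested that day. Spic lay above the band on every day; on day 7 Bach1 lay above it at 1.54, Mafg within it at 1.15, Keap1 near the median and Nfe2l2 below the median.

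As a background for these ratios, 14.9% of the 12867 genes with 20 or more UMIs were higher by 2 times or more in the heme culture of day 7 and 7.67% were lower. Of the 5 genes, chosen with earlier results of these data known, 3 were higher (Spic, Bach1 and Mafg) and none was lower. On day 4, 2 of 5 were higher (Spic and Bach1) beside 9.64% of all genes, and none was lower beside 2.98%. On day 5, the same 2 were higher beside 9.27%, and none was lower beside 3.75%. Before exposure, 2 of 5 were higher on day 0 (Spic and Bach1) beside 20.7%, with none lower beside 1.75%, and 1 of 5 on day 3 (Spic) beside 7.95%, with none lower beside 0.539%. Mafg crossed the threshold by little. With TMM factors its log2 ratio on day 7 was 0.92, with DESeq2 size factors 0.89, and relative to the median of all genes 0.87. Divided by the day 3 ratio it was 0.76, and within S100a8-low Mrc1-positive cells 0.85. Relative to the median of all genes Bach1 was also under 2 times on days 0 (0.79), 4 (0.82) and 5 (0.97), as was Spic on day 3 (0.93). With TMM factors Bach1 was at 0.84, 0.90 and 0.99 on days 0, 4 and 5, and with DESeq2 size factors at 0.85, 0.86 and 0.98, where Spic on day 3 was at 0.98. Divided by the day 3 ratio Bach1 was at 0.54 on day 4 and 0.66 on day 5. The mean of per-cell fractions gave Bach1 0.88 on day 0 and 0.96 on day 5. Spic on day 3 was at 0.87 within S100a8-low Mrc1-positive cells.

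The 4 regulators were also compared between libraries within classes of cells. The median log2 ratio of all genes on days 4, 5 and 7 was 0.26, 0.26 and 0.27 in S100a8-low cells. In S100a8-low Mrc1-positive cells it was 0.20, 0.20 and 0.22. No such median was taken for the other classes, and the ratios within classes are not corrected for it. In S100a8-low Mrc1-positive cells, 1128 in the heme and 679 in the control culture of day 7, Bach1 was 2.71 times (2.45 to 3.00) and Mafg 1.80 times (1.66 to 1.96) as high in heme, Keap1 1.196 times (1.07 to 1.33) and Nfe2l2 0.602 times (0.574 to 0.632). In S100a8-low Mrc1-negative cells the ratios were 3.25 for Bach1, 2.53 for Mafg, 1.39 for Keap1 and 0.896 for Nfe2l2. In S100a8-high cells of day 7, which numbered 523 and 191, Bach1 (1.12, 0.893 to 1.42) and Keap1 (0.767, 0.561 to 1.06) had intervals that included 1, Mafg was at 1.26 (1.02 to 1.57) and Nfe2l2 at 0.619 (0.534 to 0.720). On day 4 Bach1 was higher in all 3 of these classes, at 2.10 in S100a8-high, 2.06 in Mrc1-positive and 2.66 in Mrc1-negative cells.

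Cells with 1 or more UMIs of the dendritic cell marker Ccr7 had Nfe2l2 ratios on both sides of 1. Differences between days and classes were not tested. In S100a8-low Ccr7-positive cells its level was 63.1 against 115 CPM on day 4 (ratio 0.548, 0.389 to 0.766) and 68.2 against 114 CPM on day 5 (0.597, 0.486 to 0.731), and 115 against 88.7 CPM on day 7 (1.30, 1.09 to 1.55). These classes held 56 and 52, 116 and 174, and 87 and 575 cells of the heme and control cultures. Each of these cells is also in the Mrc1-positive or the Mrc1-negative class above, so the classes overlap. The ratios are not corrected for the shift of all genes, whose median log2 ratio was 0.27 in S100a8-low cells of day 7. The Spic level of the Ccr7-positive cells was 63.1 against 4.96 CPM on day 4, 39.1 against 2.43 CPM on day 5 and 84.7 against 0.262 CPM on day 7. Whether the Ccr7-positive cells of the 2 libraries are of the same kind was not tested. In the control culture of day 7, Nfe2l2 was at 309 CPM in Mrc1-positive and 88.7 CPM in Ccr7-positive cells. Bach1 and Mafg in Ccr7-positive cells of day 7 were 3.74 times (2.95 to 4.72) and 3.99 times (3.23 to 4.92) as high in heme. Dendritic cell markers had a summed level of 132 CPM (heme) and 1131 CPM (control) on day 7, and the part of this shift in the whole-culture ratios was not tested beyond the within-class ratios given here.

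**Figure D4:**
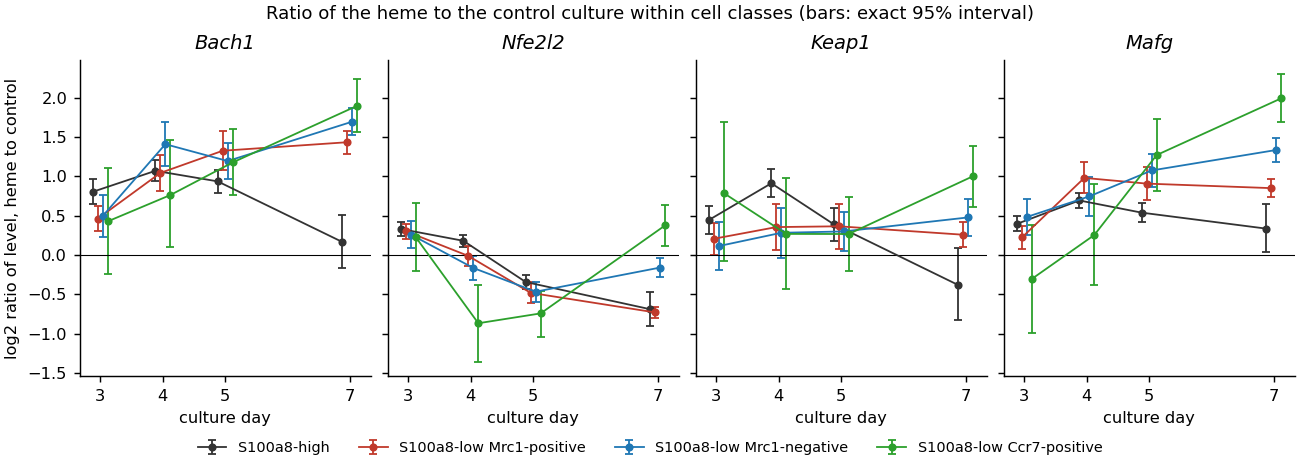
Log2 ratio of the heme to the control culture (vertical axis) by culture day for Bach1, Nfe2l2, Keap1 and Mafg within 4 classes of cells, with exact 95% intervals. The Ccr7-positive class overlaps the Mrc1-positive and Mrc1-negative classes. Bach1 and Mafg lay above 0 in each S100a8-low class on day 7, and Nfe2l2 lay below 0 in Mrc1-positive and S100a8-high cells but above 0 in Ccr7-positive cells.

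The level of the regulators varied little between the cells that held Spic and those that did not. On day 7, carrying and other S100a8-low heme cells had 116 and 113 CPM of Bach1 (1.03 times, 0.945 to 1.12), 128 and 121 CPM of Mafg (1.06 times, 0.978 to 1.15), 55.6 and 50.6 CPM of Keap1 (1.099 times, 0.969 to 1.25) and 190 and 171 CPM of Nfe2l2 (1.11 times, 1.04 to 1.19). The largest of these ratios on earlier days were 1.24 for Nfe2l2 on day 4 (1.11 to 1.38) and 1.23 for Bach1 on day 5 (1.05 to 1.43). Over the 4 S100a8-low classes split by Marco and Mrc1, Mafg ranged from 117 to 128 CPM, Bach1 from 104 to 132, Nfe2l2 from 169 to 193 and Keap1 from 46.5 to 58.2, while Spic ranged from 41.8 to 155 CPM. Split by Hmox1 instead, S100a8-low heme cells of day 7 with under 1000, from 1000 to below 5000, and 5000 or more CPM of Hmox1 had 15.7, 98.5 and 141 CPM of Spic. Their intervals (8.56 to 26.3, 91.2 to 106 and 135 to 147) did not overlap. Bach1 in these cells was at 89.5, 116 and 116 CPM, Nfe2l2 at 102, 187 and 187 CPM and Mafg at 105, 116 and 132 CPM, and Keap1 at 63.7, 51.1 and 54.8 CPM. The lowest Hmox1 class held 75 cells with a median of 11580 UMIs, against 16367 in the highest. On day 4 Spic in the 3 Hmox1 classes was at 30.4, 54.8 and 101 CPM, and on day 5 at 28.8, 48.5 and 56.1 CPM, where the intervals of the upper 2 classes overlapped (42.0 to 55.7 and 46.5 to 67.1). The regulators differed between these classes too. Nfe2l2 was at 77.9, 229 and 277 CPM on day 4 and at 51.04, 190 and 219 CPM on day 5. Bach1 in the lowest and highest class was at 64.7 and 118 CPM on day 4, and 54.6 and 93.9 CPM on day 5. Mafg in them was at 71.9 and 151 CPM on day 4, and 51.04 and 104 CPM on day 5. Keap1 was at 40.9 and 51.6 CPM on day 4 and 36.4 and 46.7 CPM on day 5, with overlapping intervals.

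The wider set of 23 regulators, like the lists of targets and red pulp genes below, was chosen with earlier results of these data known. These regulators did not move in 1 direction. On day 7, 6 were higher and 5 lower by 2 times or more, beside 14.9% and 7.67% of all genes, with a median log2 ratio of 0.45 beside 0.28. The higher ones were Nr1d1 (12.2 times) and Nr1d2 (6.16 times), heme-binding nuclear receptors of the circadian clock, Maf (4.53 times), Sqstm1 (3.83 times), whose product p62 binds KEAP1, Nfe2 (2.61 times), and Fbxo22 (2.31 times), which encodes a ligase component that degrades BACH1. The lower ones were Spib, an ETS factor related to Spi-C (0.0408 times), Bach2, the close relative of Bach1 (0.203 times, from 3 and 19 UMIs), Irf4 (0.247 times), Irf8 (0.364 times) and Nfe2l3, with 0 UMIs against 80 (its interval reaches 0.0607 times). Spi1, which encodes PU.1, the founding member of the ETS group of Spic, was at 331 against 358 CPM (0.925 times, 0.900 to 0.9502). The other small MAF genes were at 0.869 times (Maff, 0.746 to 1.01) and 1.88 times (Mafk, 1.57 to 2.24).

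The 21 listed target genes of NRF2 and BACH1 were mostly higher after exposure. This list was chosen with earlier results of these data known, so its counts only describe. On day 7, 20 of 21 were higher by 2 times or more, beside 14.9% of all genes, and none was lower, with a median log2 ratio of 2.29 beside 0.28 for all genes. The largest ratios were those of Slc40a1 (136), the iron exporter, Gsta3 (95.7) and Gstm1 (8.92), glutathione transferases, Me1 (72.0), an NADPH-producing enzyme, Hmox1 (60.3), Gclm (15.3), a subunit of the enzyme that makes glutathione, Nqo1 (12.4), a quinone reductase, Cat (6.17), catalase, Slc48a1 (5.14), a heme transporter, and Srxn1 (5.02), sulfiredoxin. Blvrb, biliverdin reductase B, stayed below the threshold at 1.95 times (1.90 to 2.01). On days 4 and 5, 13 and 15 of 21 were higher, beside 9.64% and 9.27% of all genes, and none was lower. Before exposure, 4 of 19 were higher on day 0, close to the 20.7% of all genes, and 4 of 21 on day 3, beside 7.95%. On day 0, 1 was lower. Beside these, the Nfe2l2 transcript was at 1.01 times control on day 4 and 0.764 times on day 7.

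**Figure D5:**
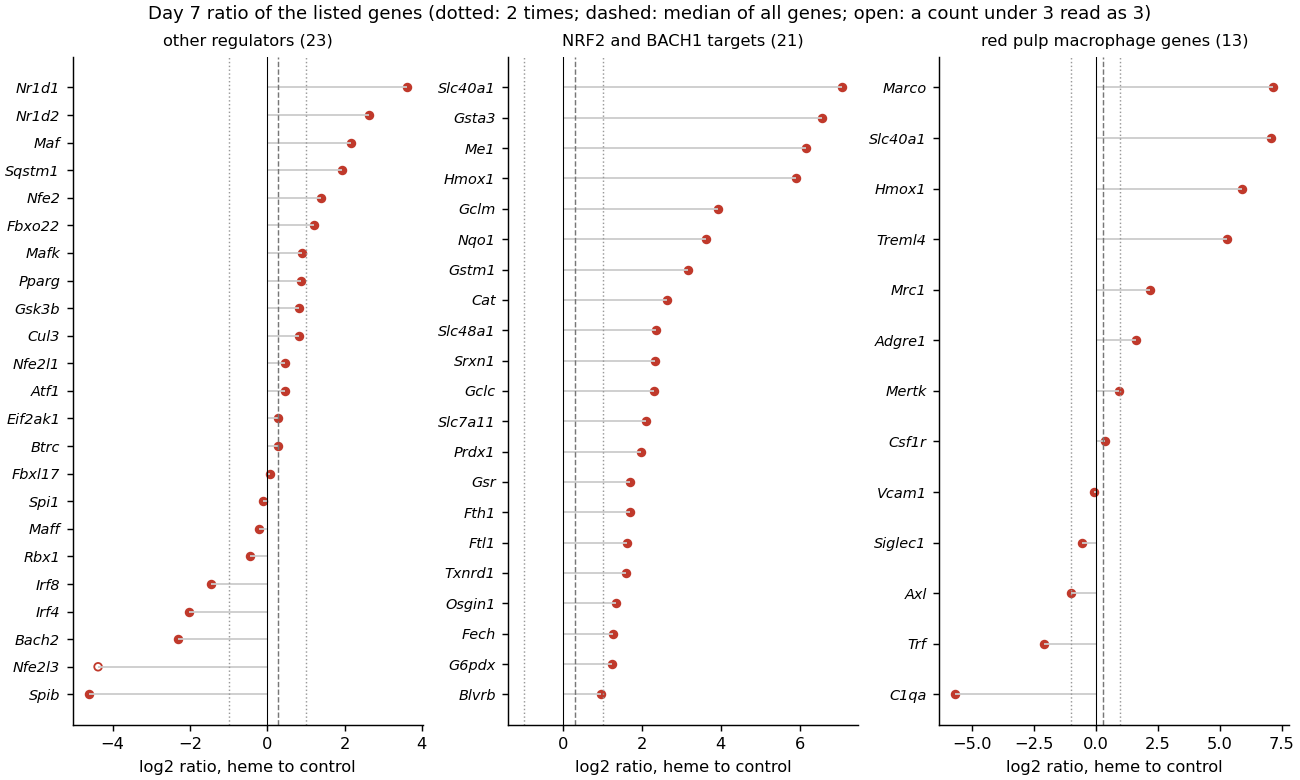
Log2 ratio of the heme to the control culture of day 7 (horizontal axes) for the listed regulators, target genes and red pulp macrophage genes whose UMIs in the 2 cultures added up to at least 20; dotted lines mark 2 times, the dashed line the median of all genes, and an open point a count under 3 read as 3. Of the targets 20 of 21 lay above 2 times, whereas the regulators had 6 above 2 times and 5 below the lower line. The lists were chosen with earlier results of these data known.

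Spic is known as a factor of red pulp macrophages, and the 16 genes listed for these cells were divided. The list includes broader macrophage genes, among them Marco, which the paper names a marker of macrophages that engulf red blood cells. Of 13 with enough UMIs, 6 were higher and 2 lower by 2 times or more on day 7, beside 14.9% and 7.67% of all genes, with a median log2 ratio of 0.92. On day 0, before any heme was given, 7 of 11 were higher and 1 lower, beside 20.7% and 1.75%. The heme cells of day 0 had been pooled with exposed ones, and 95 of their 101 Marco-positive cells held 1 Marco UMI. The ribosomal limit also applied to 59.9% of control and 7.78% of heme barcodes of that day. The part of free RNA and of the filter in these counts was not tested. On day 7, Marco (143 times), Slc40a1 (136 times), Hmox1 (60.3 times), Treml4 (39.5 times), Mrc1 (4.53 times) and Adgre1 (3.08 times), which encodes F4/80, were higher, and 2 of these, Slc40a1 and Hmox1, are also in the list of targets. C1qa, a complement subunit gene typical of resident macrophages, was lower at 1.22 against 61.8 CPM (0.0198 times, 0.0136 to 0.0279), and so was Trf, transferrin (0.239 times). Vcam1, an adhesion molecule of red pulp macrophages, had 30 and 40 UMIs (0.964 times, 0.580 to 1.59). Cd163, Cd5l and Itgad had 6 and 11, 0 and 3, and 1 and 1 UMIs in the heme and control cultures, too few to compare. Cd163, a hemoglobin scavenger receptor, and the integrin gene Itgad were thus near 0 in the culture where Spic was highest.

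Over the 10 cultures, Bach1 and Mafg followed each other most closely among the 5 genes (Pearson r = 0.95 of log2(CPM + 1)), Spic followed Bach1 (r = 0.89) and Mafg (r = 0.85), and Nfe2l2 and Keap1 ran against each other (r = -0.64). The 10 cultures come from 2 libraries and share their free RNA and depth, so these values only describe. Among 13671 other genes with 50 or more UMIs, those most like Spic were Six4 (r = 0.99), Numbl, Ubap1, Cyp4a12a and Me1 (r = 0.98 each). In the heme library Six4 stood at 0.183, 2.73, 3.51 and 8.42 CPM over days 3, 4, 5 and 7 and stayed at or below 0.102 CPM in control. In the heme library Cyp4a12a stood at 1.67, 5.94, 26.5 and 76.9 CPM. Most like Bach1 were Mfsd6, Mcoln1, Ptk2b, Atxn1 and Herc3 (r = 0.98 to 0.99). Most like Nfe2l2 were Ehd1, Relb, Cd14, Dhrs9 and Itgax (r = 0.97 to 0.98). Itgax, the dendritic cell integrin CD11c, was at 235 CPM (control) and 81.1 CPM (heme) on day 7. Most like Mafg were Mff, Ap3m1, Gm43010, Glis3 and Man2a1 (r = 0.97 to 0.99), and most like Keap1 were Zfp369, Klhl7, Kdm5d, Med23 and Fbxw7 (r = 0.98 to 0.99).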

How the data were processed

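Single-cell transcriptomes of 2 libraries were used. According to the authors' methods and the labels, UMI counts per gene and barcode were made with Cell Ranger 4.0.0 (the matrix headers name 5.0.0) on GRCm38.p6, and barcodes of empty droplets were removed. The deposited counts are raw and were used without change, as were the authors' hashtag calls (Seurat 3.2.3), which are text. Barcodes with several hashtags or none were left out, and doublets within 1 hashtag were not removed. Kept cells had 500 to 5000 genes, under 15% mitochondrial and under 30% ribosomal protein UMIs (the methods word these limits the other way; both were read as upper limits). No per-sample column was left unused.

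UMIs were summed per library and hashtag day and divided by the sum over all genes. Depth was 6189203 to 34647365 UMIs per culture. Intervals are exact 95% Poisson or Clopper-Pearson intervals and cover counting error only. With 1 library per condition there is no p-value, and PCR was accounted for by UMIs. A count under 3 was read as 3 for counts of genes past 2 times and for the lists, with 20 UMIs required in both cultures together. Status was 1 UMI for Spic, Marco, Mrc1 and Ccr7, and 5000 CPM within the cell for S100a8. Culture days follow the hashtags; the hours of exposure in the design text do not match day 5. Named genes were all 5 members, and listed genes past 2 times on day 7, at most 10 in each direction per list; likeness was Pearson r over 10 cultures, 5 genes per member. The members and lists were chosen with earlier results of these data known. The Ccr7-positive class, the Hmox1 classes and 4 alternatives were added after values had been seen. Blvrb, Spi1, Maff, Mafk, Vcam1, Cd68, Cd163, Cd5l, Itgad, Fscn1, Ccl22, Il4i1 and Flt3 are named beyond the rule. Some listed genes are not reported here and were left out of the lists. Scripts were tested on simulated data. Python 3.11.15, SciPy 1.17.1, edgeR 4.0.16 and DESeq2 1.42.0 were used; the last 2 gave scaling factors only.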

Additional observations from a re-analysis of the deposited data

Results flagged for a closer look

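Barcodes left out of the comparisons also carried the 5 genes, 4 of them at levels above those of the same kind of barcode in the control library. In heme barcodes with over 5000 genes, Spic was at 38.0 CPM on day 4, 31.7 on day 5 and 81.7 on day 7, against 0.179, 0.236 and 0.179 CPM in control. In barcodes with several hashtags it was at 31.5 against 0.341 CPM, and in those without a hashtag at 4.46 CPM against no UMI in control. Bach1 in the barcodes with over 5000 genes was at 76.5, 77.4 and 91.8 CPM on days 4, 5 and 7 (control 34.5, 30.6 and 41.1), with several hashtags at 76.5 (control 37.9) and without a hashtag at 50.2 (control 25.002). Mafg was at 110, 95.2 and 113 CPM (control 66.7, 55.0 and 58.2), 107 (control 70.1) and 74.5 (control 41.6) in the same sets. Keap1 was higher in 4 of these sets, at 50.2 and 56.0 CPM with over 5000 genes on days 5 and 7 (control 41.4 and 42.3), 54.3 with several hashtags (control 41.1) and 57.2 without a hashtag (control 31.1). Nfe2l2 was lower in heme in those with over 5000 genes on days 4, 5 and 7 (177, 189 and 175 CPM, control 211, 222 and 240) and with several hashtags (160, control 181). Whether these barcodes are doublets was not tested.

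Nfe2l2 had ratios on different sides of 1 on different days, 1.22 on day 3 against 0.759 on day 5 and 0.764 on day 7. Its ratios also differed between classes of day 7, 0.602 in S100a8-low Mrc1-positive against 1.30 in S100a8-low Ccr7-positive cells. These 2 classes can share cells. The ratios are not corrected for the shift of all genes, with a median log2 ratio of 0.31 on day 3 and 0.27 in S100a8-low cells of day 7. These differences were not tested, since there is 1 library per condition. The Ccr7-positive cells of day 7 held 84.7 CPM of Spic in heme and 0.262 CPM in control, and their likeness was not tested.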

How the results depend on the processing

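The log2 ratios of day 7 (Spic 9.49, Bach1 1.54, Nfe2l2 -0.39, Keap1 0.40, Mafg 1.15) kept their sign under all 60 alternatives run, and 30 moved by no more than their counting interval. With TMM factors Bach1 was 1.31, Nfe2l2 -0.62, Keap1 0.17 and Mafg 0.92, and with DESeq2 size factors 1.28, -0.65, 0.14 and 0.89. Minus the median of all genes they were 1.26, -0.67, 0.12 and 0.87. Divided by the day 3 ratio they were 0.98, -0.67, 0.13 and 0.76, and Spic 8.26. In S100a8-low Mrc1-positive cells they were 1.44, -0.73, 0.26 and 0.85, and in all S100a8-low cells Bach1 was 1.64 and Nfe2l2 -0.33. Totals without ribosomal protein and mitochondrial genes gave 1.44 for Bach1, -0.49 for Nfe2l2 and 1.05 for Mafg, and the mean of per-cell fractions 1.42 for Bach1 and 1.07 for Mafg. Bach1 was 1.41 over all barcodes with 1 hashtag and 1.39 with no upper limit on genes. The cause of these shifts was not tested. On days 0 to 5, 88 of 219 alternatives moved a ratio beyond its interval, and 16 changed a sign: 12 for Nfe2l2 and 4 for Keap1. Marco-positive cells held 71.2% of the Spic UMIs of day 7 in place of 78.6% with status at 2 UMIs, and 65.7% with thinned cells. Of S100a8-high cells of day 7, 12.2% carried Spic with a threshold of 2000 CPM, in place of 6.88%.

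Counts of genes past 2 times depended on the least UMIs. With 100 in place of 20, the higher genes of days 0, 3, 4 and 5 numbered 1540, 534, 676 and 665 in place of 2511, 1003, 1206 and 1161. The lower genes of days 0, 3, 5 and 7 numbered 121, 26, 289 and 648 in place of 212, 68, 470 and 987. With 1 UMI in each culture, the lower genes of days 0, 3, 4 and 5 numbered 705, 378, 728 and 738 (373 as reported on day 4), and the higher genes of days 3 and 5 numbered 1617 and 1964. No library could be left out, and no paired analysis was possible because each group is 1 library. Low counts limit Spic in control most, with 2 to 30 UMIs per culture.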
